A study of Bos taurus with 8 samples.

Results

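A set of 9 genes that mark the response of tissue to NF-kB signalling was followed in the lungs of newborn calves. They were TNF, NFKBIA, TNFAIP3, PTGS2, SOCS3, ICAM1, VCAM1, SELE and SELP, and they were chosen by name, as every non-control probe whose accession maps to one of these symbols. All 9 genes were on the array, with 18 of its 43653 probes. The test took in the 35636 probes that were well above background (a flag set by the scanner software) on at least 4 of the 8 arrays. These held 17 of the 18 member probes and all 9 genes, where the array named 11054 genes and the test took in 9867. The animals were 4 cloned Holstein calves with respiratory failure, which died within 4 days of birth. They were set against 4 naturally conceived, healthy Holstein calves slaughtered at 4 days. Each calf gave total lung RNA to 1 array of 1 colour (the dye Cy3). The sample labels give all 8 animals an age of 4 days. The donor cells of the clones are not given in the sources used here.

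NF-kB is a family of transcription factors held in the cytoplasm by inhibitor proteins. Signals such as the cytokine TNF or bacterial products lead to the breakdown of the inhibitor, and the freed factor enters the nucleus. Among the genes it induces are its own brakes, NFKBIA and TNFAIP3, the prostaglandin enzyme PTGS2, and the adhesion molecules with which the endothelium slows and holds passing leukocytes. SOCS3 is a parallel brake, induced through STAT3 and acting on receptors of the interleukin 6 family.

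Signals are given as log2 values relative to the 75th percentile of the same array, so 0 is the level of a fairly bright lung probe and 1 unit is a 2-fold difference. Levels of different probes are not compared, since probes differ in how brightly they bind. The share of spots well above background was 78.8% to 80.6% in clones and 80.4% to 83.5% in normal animals. The 8 listed markers of lung epithelium were well above background in all 8 animals. All clones shared 1 slide and 1 scan, and all normal animals a second slide and scan, so slide and group cannot be told apart. The clones died of disease and the normal animals were healthy and slaughtered. Cloning, the lung disease and the manner of death therefore cannot be told apart either. The clones died within 4 days and the normal animals were slaughtered at 4 days, so any difference in age at death goes with the group too. The p-values set the group difference against the spread between animals within groups, which holds no variation between slides. The RNA came from whole lung, in which fewer cells of a type and less RNA per cell cannot be told apart. The clones varied more than the normal animals at 90.0% of the probes tested, with a median SD of 0.53 in clones and 0.17 in normal animals.

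No member changed between clones and normal animals by the test. Of the 9 genes, each taken at its brightest probe, 0 passed an adjusted p of 0.05 (limma, Benjamini-Hochberg over all probes tested), where 0.182% of all genes did. None of the 17 member probes passed, where 0.177% of all probes did. An unadjusted p under 0.05 was reached by 2 of the 9, PTGS2 and SELE, beside 13% of all genes. Differences of at least 2-fold between group means were measured for 3 of the 9, TNF, PTGS2 and SELE, beside 8.22% of all genes. SELE met neither mark once signals at background were raised to the lowest signal well above background on their array, an alternative chosen after seeing the data. The 2 groups overlapped for all 9 brightest probes, while they did not overlap for 9.81% of all genes. The log2 difference was positive for 5 members and negative for 4, with a median of 0.05, and the median over all 9867 genes was -0.02. The members instead set the clones apart from each other. Clone 3 had the highest signal of the 8 animals for 7 of the 9 genes, and clone 4 the lowest for 4. Over all genes, clone 3 was the highest animal for 26.5% and also the lowest for 29%, and clone 4 was the lowest for 10.9%. Clone 1 was the highest for 26.4%. Clone 3 was singled out after its values were seen, and no test was made of it.

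**Figure D1:**
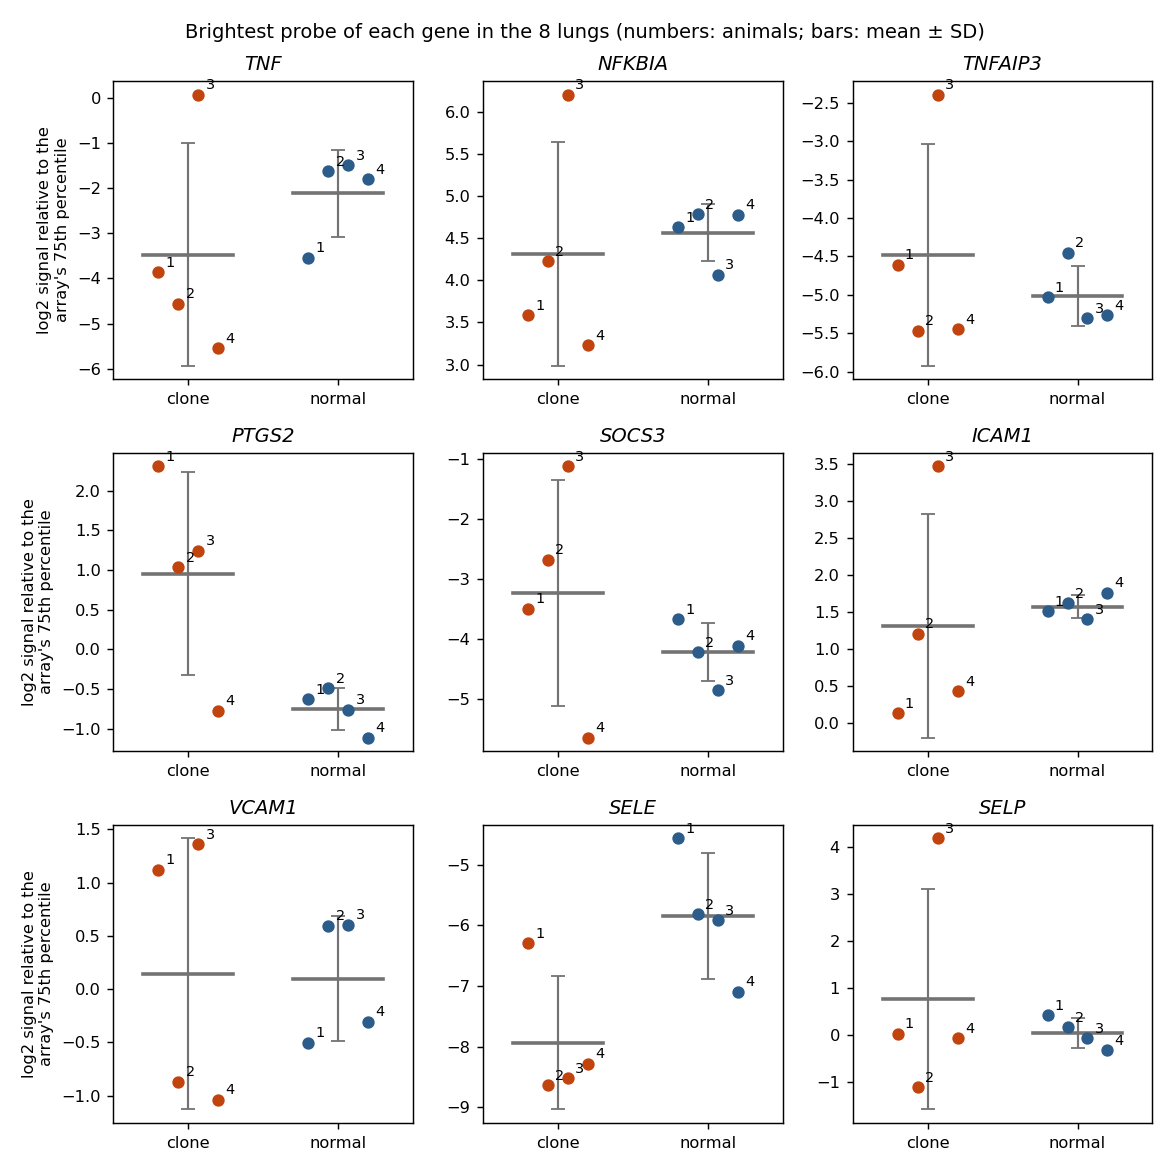
Log2 signal relative to the array's 75th percentile (vertical axes, a scale of its own for each gene) of the brightest probe of the 9 genes in the 4 clones (left, numbered by animal) and the 4 normal animals (right). Grey bars are the mean ± SD of each group (n = 4). Clone 3 is the top point of 7 panels, the exceptions being PTGS2, led by clone 1, and SELE, led by normal animal 1.

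TNF, the cytokine that starts the cascade and is itself one of its targets, spread further among the clones than any other member. Its signal was -3.86, -4.57, 0.07 and -5.54 in clones 1 to 4, against -3.55, -1.63, -1.49 and -1.80 in normal animals 1 to 4. Clones 1, 2 and 4 lay below every normal animal and clone 3 above every normal animal, a 48.9-fold range over the clones and a 4.16-fold range over the normal animals. The means were -3.47 ± 2.46 in clones and -2.12 ± 0.96 in normal animals (SD, n = 4 each). The log2 difference of -1.36 had a 95% interval from -3.90 to 1.18 (limma adjusted p = 0.658). Without clone 3 it was -2.54 (limma adjusted p = 0.080). With array weights, which gave clones 1 and 3 little weight, it was -2.79 (limma adjusted p = 0.010), a setting that called 11523 of the 35636 probes tested. Relative to the mean of the normal animals, the log2 signal of TNF was -1.74, -2.45, 2.19 and -3.43 in clones 1 to 4, so clone 4 lay furthest from that mean and clone 3 was the sole clone above it. The second, dimmer TNF probe was well above background in all 4 normal animals but among the clones only in clone 3, at -3.28. That probe measured -6.81, -6.91 and -6.31 in clones 1, 2 and 4, against -6.14, -4.85, -4.69 and -5.02 in normal animals 1 to 4. Clone 3 was above all 4 normal animals on this probe too. Clones 1, 2 and 4 were at background, below normal animals 2, 3 and 4, and their order against normal animal 1 was not resolved there.

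NFKBIA encodes IkB-alpha, the inhibitor that holds NF-kB in the cytoplasm and is remade once NF-kB is active. Its brightest probe measured 3.58, 4.23, 6.20 and 3.23 in clones 1 to 4, against 4.63, 4.78, 4.07 and 4.78 in normal animals 1 to 4. Clones 1 and 4 lay below all normal animals, clone 2 among them, and clone 3 above them by the widest gap, 3.12-fold over the normal mean. The means were 4.31 ± 1.33 in clones and 4.56 ± 0.34 in normal animals (SD, n = 4 each). They differed by -0.25 on the log2 scale (95% interval -1.59 to 1.09, limma adjusted p = 0.899). The 4 NFKBIA probes gave log2 differences of -0.25, -0.36, -0.31 and -0.20 and placed clone 3 highest and clone 4 lowest each time. The sign of the difference turned with single animals, at -0.88 without clone 3 and 0.11 without clone 4.

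TNFAIP3 encodes A20, an enzyme that edits ubiquitin chains and so shuts off signalling above the inhibitor. It had 1 probe, with signals of -4.61, -5.46, -2.40 and -5.44 in clones 1 to 4, against -5.03, -4.45, -5.30 and -5.26 in normal animals 1 to 4. Clone 3 alone was above every normal animal, 6.13-fold over their mean, while clones 2 and 4 were just below the lowest of them. The log2 difference was 0.54 (95% interval -0.92 to 2.00, limma adjusted p = 0.775) and turned to -0.16 without clone 3. It also turned to -0.04 when arrays were centred on the spike-in controls.

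SOCS3, the brake on STAT3 signalling, was highest in clone 3 and next highest in clone 2. Its signal was -3.49, -2.67, -1.13 and -5.63 in clones 1 to 4, against -3.67, -4.21, -4.85 and -4.11 in normal animals 1 to 4. Clones 1, 2 and 3 lay above every normal animal and clone 4 below every one. Clone 3 was 8.48-fold and clone 2 2.90-fold over the normal mean, and clone 4 was 2.68-fold below it. Clone 1 was 1.64-fold over it, close to normal animal 1 at 1.46-fold. The means were -3.23 ± 1.88 in clones and -4.21 ± 0.49 in normal animals (SD, n = 4 each). They differed by 0.98 on the log2 scale (95% interval -0.90 to 2.85, limma adjusted p = 0.668). The difference was 1.78 without clone 4 (limma adjusted p = 0.348) and 0.28 without clone 3. With normexp background correction and the 75th percentile it was 0.10.

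PTGS2 encodes cyclooxygenase 2, the inducible enzyme that makes the precursor of prostaglandins, and it had the largest positive difference of the members. Its brightest probe measured 2.31, 1.03, 1.24 and -0.78 in clones 1 to 4, against -0.63, -0.49, -0.76 and -1.11 in normal animals 1 to 4. Clones 1, 2 and 3 were above every normal animal, 8.31-fold, 3.44-fold and 3.98-fold over the normal mean, and clone 4 lay among the normal animals. The means were 0.95 ± 1.28 in clones and -0.75 ± 0.27 in normal animals (SD, n = 4 each). The log2 difference of 1.70 is a 3.25-fold difference (95% interval 1.33-fold to 7.93-fold), with an unadjusted limma p of 0.0153 and an adjusted p of 0.252. The exact permutation test over the 8 animals gave a 2-sided p of 0.114, where the smallest possible is 0.0286.

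The second PTGS2 probe was the sole member probe whose groups did not overlap, 1 of 17, beside 10.1% of all probes tested. It measured -1.30, -2.14, -2.19 and -3.66 in clones 1 to 4, against -3.90, -4.07, -4.22 and -4.42 in normal animals 1 to 4. All 4 clones were thus above all 4 normal animals, by 1.83 on the log2 scale (95% interval 0.82 to 2.84, limma adjusted p = 0.165). The third probe was the 1 member probe left out of the test. Clones 1, 2 and 3 had it well above background, and clone 4 and the normal animals did not. Clone 4 measured -7.22, among the normal animals at -7.99 to -6.92. With clone 4 taken as measured, the clone mean was 2.24-fold higher or more. That figure sets the clone mean against, for each normal array, the higher of the probe's own signal and the lowest signal of any probe well above background. Since clone 4 was itself at background, the figure is not a strict lower bound. Leaving out any 1 animal kept the difference of the brightest probe positive, between 1.25 without clone 1 and 2.28 without clone 4, with adjusted p of 0.111 or more. On the spike-in scale it was smaller, at 1.12, with a 95% interval that included 0 (-0.21 to 2.46). The unadjusted limma p was 0.0898 there and the adjusted p 0.170.

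ICAM1, an immunoglobulin-type adhesion molecule that binds leukocyte integrins, was the member with the tightest values in normal lungs. Its brightest probe measured 0.14, 1.21, 3.47 and 0.44 in clones 1 to 4, against 1.52, 1.62, 1.40 and 1.76 in normal animals 1 to 4. Clones 1, 2 and 4 lay below all normal animals and clone 3 above them, a 10.0-fold range over the clones and a 1.28-fold range over the normal animals. The means were 1.31 ± 1.50 in clones and 1.58 ± 0.15 in normal animals (SD, n = 4 each). The log2 difference of -0.26 (95% interval -1.74 to 1.21, limma adjusted p = 0.904) was -0.98 without clone 3 (limma adjusted p = 0.105). It turned positive, to 0.13 and 0.03, without clone 1 and clone 4. The other 2 ICAM1 probes gave -0.28 and -0.35 and the same split of 3 clones below and clone 3 above.

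VCAM1, which binds the integrin of lymphocytes and monocytes, split the clones differently. Its brightest probe measured 1.12, -0.87, 1.36 and -1.04 in clones 1 to 4, against -0.50, 0.60, 0.61 and -0.30 in normal animals 1 to 4. Clones 1 and 3 were above every normal animal and clones 2 and 4 below every one. The means of 0.14 ± 1.27 in clones and 0.10 ± 0.59 in normal animals (SD, n = 4 each) differed by 0.05 (95% interval -1.33 to 1.42, limma adjusted p = 0.982). The difference was -0.36 without clone 3 and -0.53 on the spike-in scale. The second VCAM1 probe gave a log2 difference of 0.38 and again placed clones 1 and 3 above all normal animals, with clone 2 below them and clone 4 among them.

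The selectins are lectins that let leukocytes roll along the vessel wall. SELP, stored in granules of endothelium and platelets, showed the highest single departure among the members. Its signal was 0.03, -1.11, 4.18 and -0.07 in clones 1 to 4, against 0.42, 0.17, -0.07 and -0.33 in normal animals 1 to 4. Clone 3 was 17.6-fold over the normal mean, clone 2 was 2.23-fold below it, and clones 1 and 4 lay within the normal range. The means were 0.76 ± 2.34 in clones and 0.05 ± 0.32 in normal animals (SD, n = 4 each). They differed by 0.71 on the log2 scale (95% interval -1.56 to 2.98, limma adjusted p = 0.813). Without clone 3 the difference was -0.43 (limma adjusted p = 0.516).

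SELE, a selectin made by activated endothelium, was the member on which clone 3 did not stand high. Its single probe measured -6.30, -8.64, -8.52 and -8.28 in clones 1 to 4, against -4.57, -5.82, -5.92 and -7.10 in normal animals 1 to 4. Of the clones, clone 1 alone was well above background, as were normal animals 1, 2 and 3. The remaining levels are at background, so the size of the difference was not resolved. The means were -7.93 ± 1.10 in clones and -5.85 ± 1.03 in normal animals (SD, n = 4 each). The log2 difference of -2.08 (95% interval -3.56 to -0.61) had an unadjusted limma p of 0.0111 and an adjusted p of 0.231. With signals at background raised to the lowest signal well above background on their array, it was -0.74 (95% interval -1.74 to 0.27), with an unadjusted limma p of 0.130 and an adjusted p of 0.532. With the signals as measured, a call was reached under other settings, with limma adjusted p of 0.034 without clone 1, 0.039 on the spike-in scale and 0.027 with array weights. Those 3 settings called many probes, 2562, 5098 and 11523 of the 35636 tested. With normexp background correction and quantile normalization the log2 difference was -0.32. In clone 3, which was highest for SELP, SELE was at background.

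**Figure D2:**
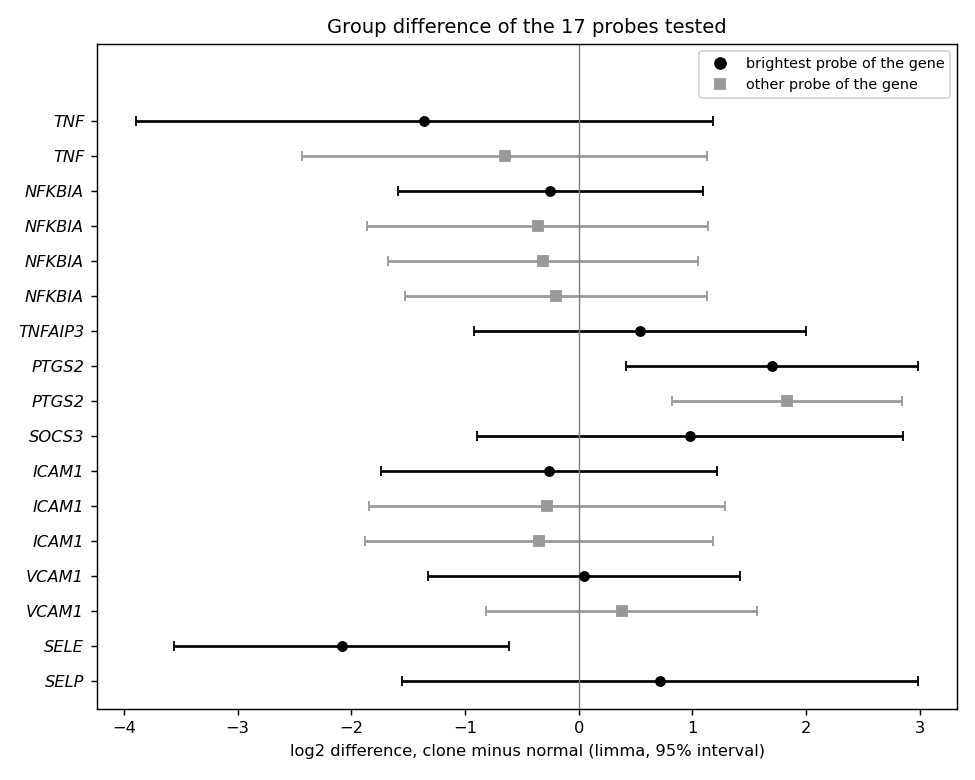
Log2 difference between the means of the clones and the normal animals (horizontal axis) with its 95% interval from limma (bars), for the 17 member probes tested. Circles are the brightest probe of each gene and squares its other probes. The intervals of the 2 PTGS2 probes lie above 0 and that of SELE, measured at background in 4 of the 8 animals, below 0, and none of the 17 passed the adjusted threshold.

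Probes of the same gene gave log2 differences of the same sign for all 5 genes with more than 1 probe. Among genes, likeness over the 8 animals was measured as the mean absolute difference between log2 values, each centred on its own mean. NFKBIA and ICAM1 were the most alike pair at 0.20, and TNF and PTGS2 the least alike at 1.97. The measure was not scaled, so it also reflects how widely each gene varied. The mean absolute deviation over the animals was 0.66 for NFKBIA, 0.65 for ICAM1, 1.07 for PTGS2 and 1.58 for TNF. Of 9626 other named genes, the nearest to ICAM1 was CLEC1A (0.18), the nearest to SOCS3 were the immediate early gene JUNB (0.41) and CEBPD (0.42), and the nearest to TNF was CD180 (0.41). NFKBIE, a further inhibitor of NF-kB, was the third nearest to SELP (0.37), after OLFM1 (0.31) and ATP2A1 (0.34). For the remaining members, FOXL2 was nearest to NFKBIA (0.18), ARID5A to TNFAIP3 (0.20) and CKB to PTGS2 (0.39). SLC7A5 was nearest to VCAM1 (0.30) and EIF4E3 to SELE (0.49), though SELE was at background in clones 2, 3 and 4 and normal animal 4.

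The figure of each clone left out in turn shows how far single animals carry these differences. Without clone 3, 7 of the 9 members were lower in clones and the median log2 difference was -0.43. Without clone 4, 7 of the 9 were higher and the median was 0.44. No member passed in either case.

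**Figure D3:**
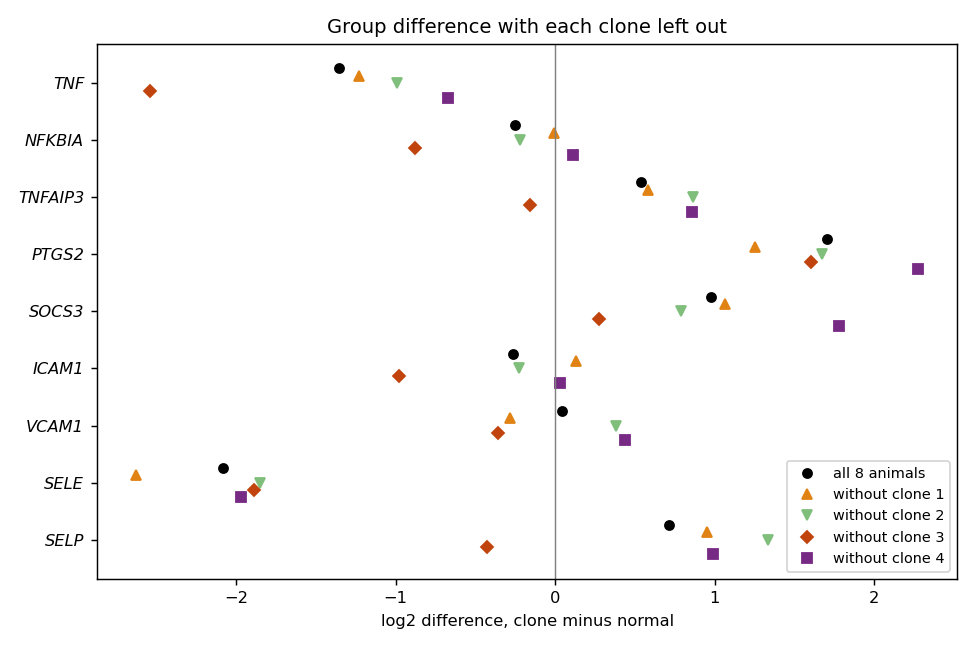
Log2 difference between clones and normal animals (horizontal axis) for the brightest probe of each member, with all 8 animals (black circles) and with clone 1, 2, 3 or 4 left out (coloured symbols). All members but PTGS2 and SELE have their lowest value without clone 3, while PTGS2 stays between 1.25 and 2.28 and SELE between -2.63 and -1.85.

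The other genes of the pathway were taken as lists. None of their genes passed the test, and clone 3 again stood high in several lists. An unadjusted limma p under 0.05 was reached by 0 of the subunits and 0 of the other brakes, by 3 of the 23 other inducible targets, all higher in clones, and by 4 of the 13 leukocyte ligands, all lower in clones, beside 13% of all genes in either direction. It was also reached by 4 of 17 prostaglandin genes (2 higher, 2 lower), 2 of 9 genes of the SOCS and STAT3 arm (both lower), 1 of 14 of the TNF receptor arm (lower) and 2 of 11 other endothelial adhesion genes (1 higher, 1 lower). Of 14 other inhibitors and brakes of NF-kB, 0 passed, 12 had a positive log2 difference and the median was 0.44. Their mean signal was 0.97, 1.22, 2.37 and 0.83 in clones 1 to 4 and lay between 0.84 and 1.15 in the normal animals, and clone 3 was the highest animal for 10 of the 14. NFKBIZ, a nuclear IkB protein, measured 0.69, 1.68, 3.64 and 0.13 in clones 1 to 4, against 0.04, 0.39, 0.24 and 0.07 in normal animals 1 to 4 (log2 difference 1.35, limma adjusted p = 0.436). NFKBIE measured -1.20, -1.99, 2.17 and -1.99 in clones 1 to 4 and between -1.60 and -1.24 in the normal animals. OTULIN, which cleaves linear ubiquitin chains, differed by 0.80 (limma adjusted p = 0.383). TNFAIP8L2, a relative of a TNF-induced protein, ran the other way, with clone 3 the lowest animal. It measured 1.01, 0.39, -1.96 and 0.41 in clones 1 to 4, against 0.77, 1.31, 0.96 and 0.76 in normal animals 1 to 4 (log2 difference -0.99, limma adjusted p = 0.517). NFKBID, a further nuclear IkB protein, differed by 0.49 (limma adjusted p = 0.586).

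Among the NF-kB subunits, 4 were measured and 0 passed. NFKB2 measured 0.50 in clone 3 and between -1.69 and -1.32 in the other clones, against -1.78 to -1.46 in normal animals. RELA measured 4.64 in clone 3 and between 3.16 and 3.41 in the other clones, against 3.37 to 3.56 in normal animals. REL, the subunit of lymphoid cells, differed by -0.27 (limma adjusted p = 0.577). Of 14 genes of the TNF receptors and the IkB kinase arm, 0 passed, 8 had a positive and 6 a negative difference, and the median was 0.01. TRADD and RIPK1 differed by -0.68 and -0.35 (limma adjusted p = 0.307 and 0.383), and TAB3 by 0.23 (limma adjusted p = 0.588). RIPK1 was below all normal animals in 4 of 4 clones, and TAB3 was above all of them in 4 of 4. The groups did not overlap for 1 gene of the 14 in each direction, beside 9.81% of all genes in either direction.

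Of 23 other inducible targets 0 passed, 20 had a positive difference and the median was 0.46. Their mean signal was 0.42, -0.10, 1.49 and -0.72 in clones 1 to 4 and between -0.35 and -0.15 in the normal animals. Clone 3 was the highest animal for 13 of the 23, and the mean of clone 4 lay below every normal animal. The monocyte chemokine CCL2 measured 5.85, 4.77, 6.86 and 3.85 in clones 1 to 4, against 4.22, 3.25, 3.72 and 2.47 in normal animals 1 to 4 (log2 difference 1.92, limma adjusted p = 0.255). The early response gene IER3 differed by 1.53 and the adaptor TRAF1 by 0.65 (limma adjusted p = 0.360 and 0.358).

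**Figure D4:**
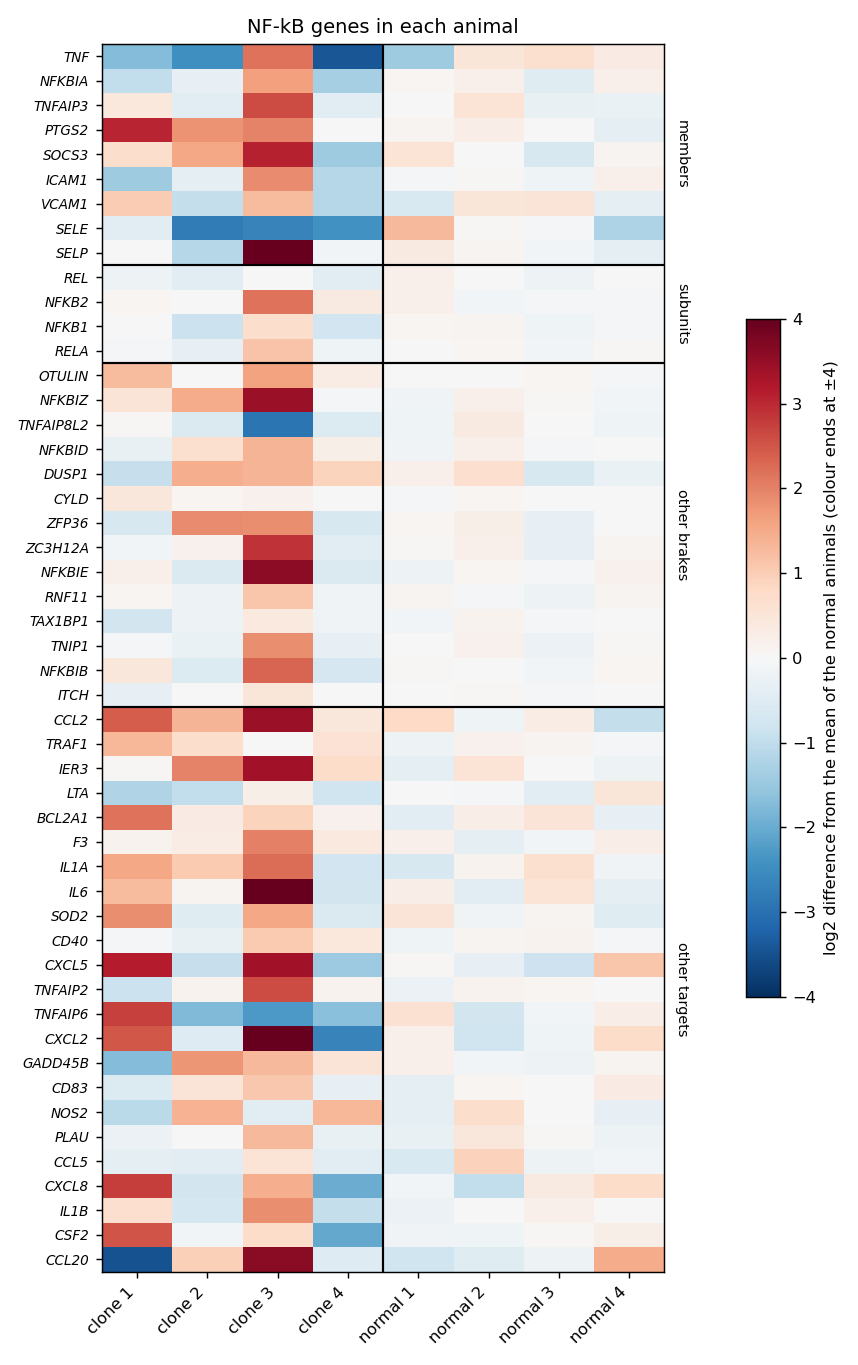
Log2 difference of each animal (columns, clones left of normal animals) from the mean of the 4 normal animals for the 9 members, 4 NF-kB subunits, 14 other brakes and 23 other inducible targets (rows). Red is higher and blue lower, with the colour ending at ±4. Clone 3 is above the normal mean for 8 of the 9 members, SELE being the exception, while clone 4 is below it for all 9, by little for PTGS2 and SELP.

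Around PTGS2, 17 genes of prostaglandin synthesis, receptors and breakdown were measured and 0 passed, 3 with a positive and 14 with a negative difference (median -0.40). PTGES, which turns the product of cyclooxygenase into prostaglandin E, measured 3.91, 4.06, 5.50 and 3.37 in clones 1 to 4, against 2.62, 2.90, 2.66 and 2.66 in normal animals 1 to 4. All 4 clones were above all normal animals, by a log2 difference of 1.50 (95% interval 0.57 to 2.43, limma adjusted p = 0.192), and all 3 PTGES probes had this sign. TBXAS1, which makes thromboxane from the same precursor, measured -0.53, -2.05, -0.76 and -2.11 in clones 1 to 4, against -0.11, 0.31, -0.06 and 0.39 in normal animals 1 to 4. All 4 clones were below all normal animals (log2 difference -1.50, limma adjusted p = 0.182). The thromboxane receptor TBXA2R differed by -0.91 on its brightest probe, against the sign of both its dimmer probes. The prostaglandin E receptor PTGER1 differed by 0.93 (limma adjusted p = 0.220 for both genes). Of the 17 genes, the groups did not overlap for 1 higher and 2 lower in clones, beside 9.81% of all genes in either direction.

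Beside SOCS3, 9 genes of the SOCS family and the STAT3 arm were measured and 0 passed. The interleukin 6 receptor IL6R measured -0.33, -0.39, 0.06 and -0.78 in clones 1 to 4, against 0.43, 0.43, 0.28 and 0.32 in normal animals 1 to 4, so all 4 clones were lower (log2 difference -0.72, limma adjusted p = 0.204). The phosphatase PTPN6 was also lower in 4 of 4 clones (-0.68, limma adjusted p = 0.242). In this list the groups did not overlap for 2 of the 9 genes, both lower in clones, beside 9.81% of all genes in either direction. The brakes SOCS2 and CISH differed by 0.46 and 0.44 (limma adjusted p = 0.495 and 0.659).

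On the side of the leukocytes, 13 ligands of the adhesion molecules were measured, 0 passed, and 12 of them had a negative difference with a median of -0.55. ITGAL, the alpha chain of the ICAM1-binding integrin LFA-1, measured -5.27, -5.00 and -4.20 in clones 1 to 3, against -3.50, -2.82, -3.52 and -3.00 in normal animals 1 to 4. Its spot in clone 4 carried an outlier flag and was dropped from the fit, which gave a log2 difference of -1.62 (limma adjusted p = 0.119). SELPLG, the ligand of SELP, differed by -0.94 (limma adjusted p = 0.269) and was below every normal animal in 3 of 4 clones. Of 11 other endothelial adhesion molecules 0 passed. Their mean signal was 0.50, 0.92, 1.66 and 1.26 in clones 1 to 4, with clone 3 the highest, and between 0.78 and 0.99 in normal animals. CD34 was higher in 4 of 4 clones, at 0.73 (limma adjusted p = 0.189). Among these 11 the groups did not overlap for 1 gene, higher in clones, beside 9.81% of all genes in either direction.

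Marker lists of the cells that make or meet these molecules varied among the animals too. Of them 0 passed the test (limma), and an unadjusted p under 0.05 was reached by 3 of 8 macrophage markers (all lower in clones), 5 of 11 neutrophil markers (1 higher, 4 lower), 3 of 10 T and NK cell markers (1 higher, 2 lower), 1 of 3 platelet markers (lower) and 1 of 8 epithelial markers (lower). None of the endothelial and erythroid markers reached it, and 13% of all genes did. The 11 endothelial markers measured had a mean signal of 1.27, 2.78, 3.06 and 3.02 in clones 1 to 4 and between 2.62 and 2.79 in normal animals. Clone 1 was the lowest animal and clone 3 the highest. Of the endothelial members, clone 1 was the lowest animal for ICAM1, above every normal animal for VCAM1, the highest clone for SELE and within the normal range for SELP. The 11 neutrophil markers had means of 0.33, -1.81, -0.65 and -1.38 in clones 1 to 4 and between -0.62 and -0.12 in normal animals. The 8 macrophage markers had means of 2.55, 1.62, 3.05 and 1.39 in clones 1 to 4 and between 2.67 and 3.08 in normal animals, with clones 2 and 4 the lowest. The 3 platelet markers measured had means of -1.77, -2.48, -1.49 and -2.38 in clones 1 to 4 and between -1.99 and -1.74 in normal animals, with clone 3 the highest. The 10 T and NK cell markers had means between -1.61 and -0.95 in clones and between -1.01 and -0.02 in normal animals. The 6 erythroid markers had means between -2.19 and 0.05 in clones, the highest in clone 1, and between -2.33 and -1.15 in normal animals. All markers measured in the endothelial, neutrophil, macrophage, platelet and T and NK cell lists were well above background in all 8 animals, and 5 of the 6 erythroid markers were. The part of these cell types in the results on the members was not tested.

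**Figure D5:**
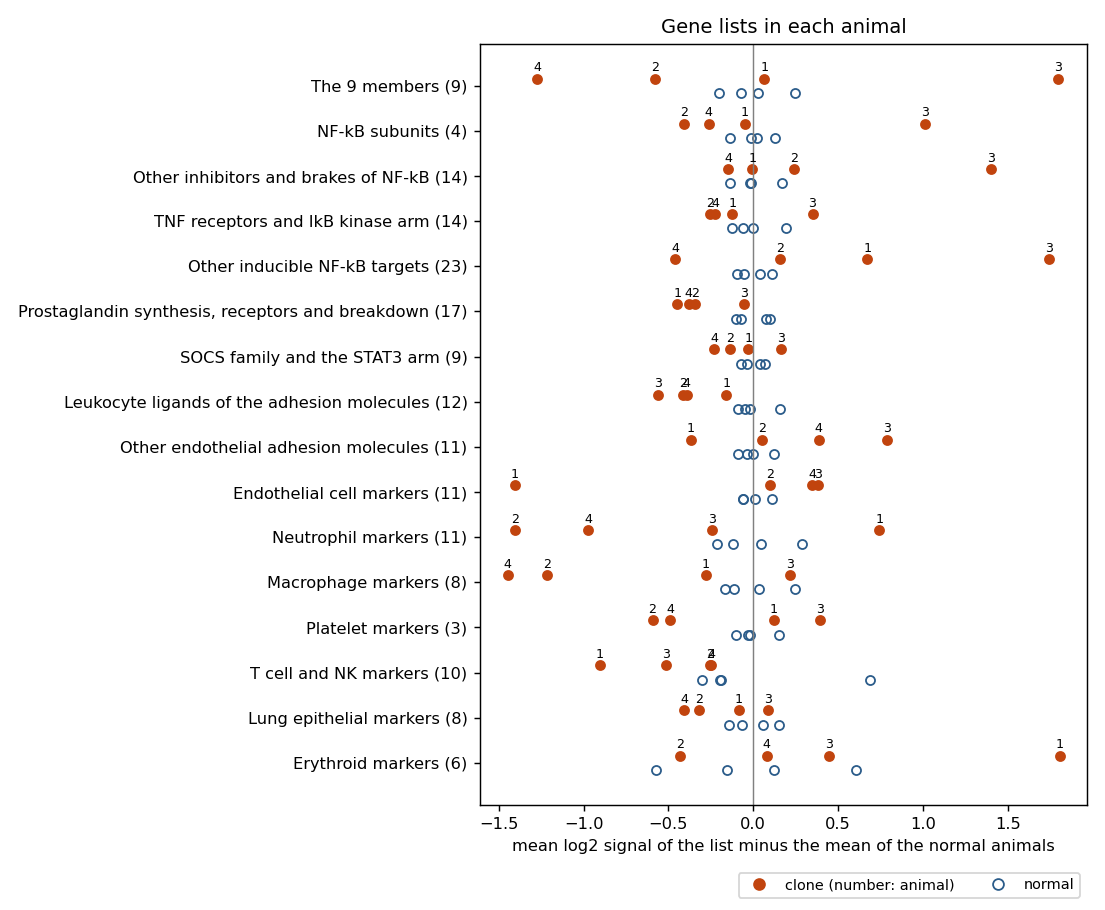
Mean log2 signal of each gene list, minus the mean of the 4 normal animals (horizontal axis), for the clones (filled, numbered) and the normal animals (open); the number of genes averaged is in brackets. Clone 3 is furthest right for the members, the subunits, the other brakes, the TNF receptor arm, the other targets and the SOCS and STAT3 arm. It is also furthest right for the other endothelial adhesion molecules, the endothelial markers and the platelet markers. Clone 3 is furthest left for the leukocyte ligands, and clone 1 for the endothelial markers.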

How the data were processed

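Lung RNA of 4 cloned and 4 normal calves was hybridised to 1-colour arrays, 1 per calf. The authors deposited scanner files of Agilent Feature Extraction with a background-subtracted processed intensity per spot, not normalized between arrays, per the file headers. The submitters' processing notes name version 10.7. The authors' deposited table of log2 values, whose columns share a 75th percentile of 10.5, served as an alternative. How it was normalized is not stated in those sources.

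Control spots and spots with an outlier flag (2 to 21 of 43803 per array) were left out, and saturated spots were 0. From each log2 processed signal the 75th percentile of its array was subtracted, and spots of a probe were averaged. Accessions were matched without versions to RefSeq genes of ARS-UCD2.0, which named 23492 of 43653 probes. The array design cites Btau_3.1, so no coordinates are given. Groups were compared over all 35636 kept probes with limma 3.58.1 in R 4.3.3, 2-sided, by groups taken from the sample titles. The fit was tested on simulated data.

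Members and gene lists were chosen with earlier results of these data known. All members are named, with up to 4 genes of each pathway list by smallest p and some of the 3 genes most like each member. The number of arrays limits the precision. Normexp used the median spot signal, since the files used here hold no mean signal. A result on 1 listed gene is not reported here. The promoter motif search named in the plan was not run here. Correlations of the deviations of same-numbered animals lay between -0.20 and 0.10, which cannot settle whether the numbers pair animals. The main fit took the animals as unpaired. On this scale all 10 spike-in controls had higher means in clones (median log2 difference 0.67).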

Additional observations from a re-analysis of the deposited data

Results flagged for a closer look

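Among 36 groups of 4 values (18 probes, clones and normal animals apart), 3 held an animal whose gap to its nearest neighbour was above Dixon's 95% critical value for the gap over the range. Chance flags about 1 group in 20, and probes of the same gene are not independent. TNF on its brightest probe was low in normal animal 1, at -3.55, against -1.80 to -1.49 in the other normal animals. TNF on its dimmer probe was high in clone 3, at -3.28, against -6.91 to -6.31 in the other clones, which were not well above background. SELE was high in clone 1, at -6.30, against -8.64 to -8.28 in the other clones, which were not well above background.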

How the results depend on the processing

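The count of 0 members past the threshold (limma) was 1 on the spike-in scale, 2 with array weights, which gave clones 1 and 3 weights of 0.12 and 0.10, and 0 to 1 with 1 animal left out. The members called were SELE in each case and, with array weights, TNF (log2 difference -2.79, adjusted p = 0.010). Over all probes 63 were called. The count was 5098 on the spike-in scale, which moved the median of all probes to -0.60, and 0 (limma) after normexp with the 75th percentile, with 2278 at an unadjusted p under 0.05 and a median of -0.32. Normexp followed by quantile normalization gave 25. The count was 17 for probes well above background on all 8 arrays (SELE removed), 146 with trend and robust settings, 11523 with array weights, and between 17 and 2562 with 1 animal left out, with 2562 without clone 1, 451 without clone 3, 32 without clone 4 and 17 to 31 without a normal animal. With the replicate number as a block 13 probes and 0 members were called. The block changed no call of a member. With background signals raised, an alternative chosen after seeing the data, 51 probes and 0 members were called and SELE was -0.74. PTGS2, SOCS3, SELE and TNF kept their sign under all alternatives run. TNFAIP3 was -0.042 on the spike-in scale, -0.33 with normexp and 75th percentile centring and -0.26 with array weights. VCAM1 was -0.53, -0.0099 and -0.82 under the same settings. SELP was -0.49 with array weights. With 1 animal left out the sign turned in ICAM1 (-0.98 to 0.13), NFKBIA (-0.88 to 0.11), SELP (-0.43 to 1.33), TNFAIP3 (-0.16 to 0.87) and VCAM1 (-0.36 to 0.44). The cause was not tested.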
